A study of Sus scrofa with 5 samples.

Results

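The miR-183 cluster consists of ssc-miR-183, ssc-miR-96 and ssc-miR-182, and its levels were described in pig blastocysts (BLs), embryonic stem cell-like (ES-like) cells, embryoid bodies (PEBs) and fetal fibroblasts (PFFs). Members were taken from the table of reported miRNAs by name, with or without an arm ending. This gave 3 of the 411 mature names in the table (327 of which had a read in some library), namely ssc-miR-183, ssc-miR-96-5p and ssc-miR-182. Each stood in 1 precursor row, so no counts had to be added up for a member, and the opposite arms were not analysed here. BL_1 and BL_2 were pools of day 7 blastocysts grown in PZM3 from oocytes activated without sperm, with fetal bovine serum added during culture. ES-like cells had been derived from blastocysts and were kept on mouse embryonic fibroblast feeders with stem cell factor and basic fibroblast growth factor. PEBs were hanging-drop aggregates of these ES-like cells, made without the cytokines. PFFs were fibroblasts of mixed breed from fetuses taken about a month after artificial insemination. Head, limbs and internal organs had been removed before culture. The sample sheet gives the ES-like cells and PEBs as XX, the PFFs as XY and the BLs as mixed, although the BLs arose without sperm. BLs had 2 libraries and each of the other cell types 1, so only BLs had a replicate spread, and nothing states whether the pools came from separate rounds of activation. The single libraries have no replicate check, and there cell type cannot be told apart from culture, donor, sex or library.

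The 3 miRNAs are processed from a common primary transcript. They are known for their high levels in sensory cells of the retina and inner ear, and mutations in the seed of miR-96 cause progressive hearing loss in people and mice. They are also found in many epithelia and in epithelial cancers, and the FOXO transcription factors are among the known targets of miR-96 and miR-182. The seed is the stretch near the 5′ end that pairs with target mRNAs, and miR-96 and miR-182 have nearly the same one, while that of miR-183 is related but different. In the RefSeq annotation of the later pig assembly Sscrofa11.1, MIR183, MIR96 and MIR182 follow each other without another gene between them, flanked by UBE2H and NRF1. All 3 members matched this annotation by their precursor names.

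The number of mature miRNA reads ranged from 113743 in BL_1 to 27071931 in PFFs, so a single read stood for 8.79 reads per 1000000 (RPM) in BL_1 and 0.0369 RPM in PFFs. RPM here is the share of a member in the counts of reported miRNAs summed over all 493 precursor rows. As 66 names stood in several rows, and some names had nearly the same counts, a read may be counted more than once in this total. RPM says nothing of the amount of miRNA per cell. The study gives miRNAs as a smaller part of all small RNAs in BLs than in the cultured cells. RPM leaves this out, so it does not rank the libraries by share of small RNA. In pooled RNA, fewer cells with a miRNA and less of it per cell cannot be told apart. Of the mesenchymal and fibroblast-associated miRNAs fixed as markers (miR-143, miR-145, miR-199a, miR-199b and miR-214), all 5 numbers were listed, with 9 mature names. Their summed level was 236083 RPM in PFFs, 212560 RPM in PEBs and 84768 RPM in ES-like cells, against 466 RPM in BL_1 and 340 RPM in BL_2. ssc-miR-199a-3p and ssc-miR-199b-3p had nearly the same counts in every library, and with this pair counted once the sums were 183565, 132139, 58252, 273 and 218 RPM in the same order. In BL_1, 4 of the 9 names were at 0, and 2 were in BL_2. Mesenchymal miRNAs were thus abundant in ES-like cells as well as in PEBs and PFFs, and the part of the mouse feeder cells in the reads of ES-like cells was not tested. Of the 8 pluripotency-associated numbers only miR-371 was listed, at 324635 and 296148 RPM in the BL libraries, 30.9 RPM in ES-like cells, 0.505 RPM in PEBs and 0.185 RPM in PFFs. The other 7 were not analysed here. This marker was thus far lower in ES-like cells than in BLs, but 61.2 times as high there as in PEBs (197 against 8 reads) and 167 times as high as in PFFs (5 reads). The columns of ES-like cells and PFFs were taken by the library names in the sample titles, while a read summary of the study gives the totals of these 2 libraries the other way round. The ssc-miR-371-5p reads, higher in the column named for ES-like cells, and the mesenchymal sum, highest in the column named for PFFs, both run in the direction of the names. Of the 6 blood cell-associated numbers, 5 were listed, and their 6 names summed to at most 123 RPM in any library.

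All 3 members were abundant in BLs, ES-like cells and PEBs and scarce in PFFs. For ssc-miR-182, BL_1 had 1843 reads, BL_2 had 75498, ES-like cells 63550, PEBs 146020 and PFFs 702. These counts were 16203, 27137, 9973, 9213 and 25.9 RPM in the same order. It was the most abundant member in every library except ES-like cells, and ranked 9th of the reported miRNAs in BL_2. ssc-miR-183 had 1287, 38004, 63551, 121178 and 515 reads in the same 5 libraries, or 11315, 13660, 9973, 7645 and 19.0 RPM. Its levels fell in the order BL_2, BL_1, ES-like cells, PEBs and PFFs, and it ranked 13th in BL_2, 15th in BL_1, 20th in ES-like cells, 29th in PEBs and 177th in PFFs. In ES-like cells the counts of ssc-miR-183 and ssc-miR-182 differed by 1 read. ssc-miR-96-5p had 49, 1820, 13371, 12531 and 59 reads, which were 431, 654, 2098, 791 and 2.18 RPM. It was the scarcest member in every library, and unlike both others it was highest in ES-like cells, above either BL library.

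**Figure D1:**
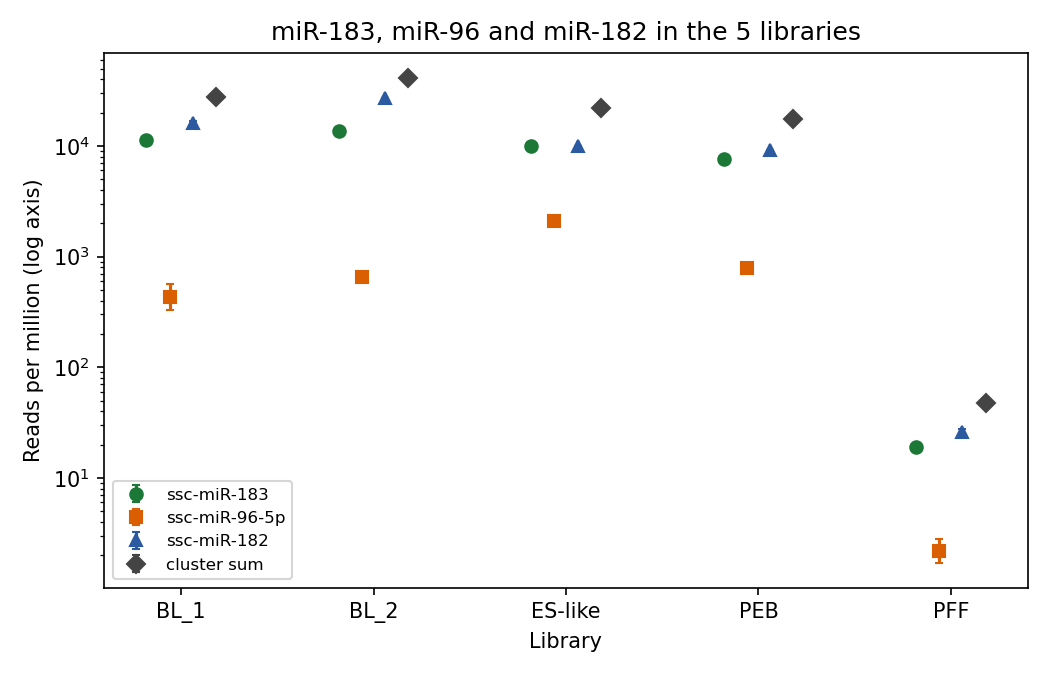
RPM of each member and of their sum (vertical axis, log scale) in the 5 libraries (horizontal axis). Points are single libraries and bars are 95% Wilson intervals for counting error. PFFs lie below all other libraries for each member, at 47.1 RPM for the sum, and ssc-miR-96-5p is highest in ES-like cells.

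The counting error of these levels was small beside the differences from PFFs. The 95% Wilson interval ran from 326 to 569 RPM for ssc-miR-96-5p in BL_1, the level with the fewest reads, and from 1.69 to 2.81 RPM for the same miRNA in PFFs. Such intervals cover counting error only, because reads of amplified libraries are not independent molecules. Together the members took 2.79% and 4.15% of the summed counts of BL_1 and BL_2 and 2.20% of those of ES-like cells. They took 1.76% in PEBs and 0.00471% in PFFs. The mean of BLs was 34700 ± 9547 RPM (SD, n = 2) for the sum, 21670 ± 7731 RPM for ssc-miR-182, 12488 ± 1658 RPM for ssc-miR-183 and 542 ± 158 RPM for ssc-miR-96-5p. BL_2 lay above BL_1 by 1.67 times for ssc-miR-182, 1.52 times for ssc-miR-96-5p and 1.21 times for ssc-miR-183. For the sum, the neighbours ES-like cells and PEBs differed by 1.25 times, which is less than the 1.48 times between the BL libraries.

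The cell types were compared by the 2-fold rule of the study on RPM, averaging the 2 BL libraries. Against PFFs, the summed level was 736 times as high in BLs, and 593 and 879 times as high with BL_1 and BL_2 taken alone. ES-like cells stood 468 times above PFFs (exact 95% counting interval 443 to 495) and PEBs 374 times (354 to 396). These intervals leave out the choice of scaling, which moved the ratios far more. For the sum, BLs stood 422 times above PFFs with TMM and 551 times with DESeq2's size factors, ES-like cells 168 and 228 times, and PEBs 221 and 187 times. When the top miRNA of each library was taken out of its total, the ratios were 508, 266 and 220 times. Among the members the ratio to PFFs on RPM ran from 249 times for ssc-miR-96-5p in BLs to 963 times (746 to 1265) for the same miRNA in ES-like cells. This order changed with the scaling. With TMM it ran from 138 times for ssc-miR-182 in ES-like cells to 480 times for ssc-miR-182 in BLs, and with DESeq2's size factors from 177 times for ssc-miR-182 in PEBs to 623 times for ssc-miR-182 in BLs. All 3 members were more than 2-fold higher than in PFFs in each of the other cell types. Of the 327 reported miRNAs, 36.1% passed in the same direction for BLs, 50.8% for ES-like cells and 42.8% for PEBs. In all of the 3 comparisons together 19.6% passed. At more than 100-fold in all of them, a limit chosen after the values were seen, 11 miRNAs or 3.36% passed, the 3 members among them. Of these 11, 4 had no read in PFFs, so that any level above 0 elsewhere passed, and 2 had 1 or 2 reads there. Another of the 11, ssc-miR-122, a liver-enriched miRNA, had 112 reads in PFFs.

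Each of the other cell types was tested against BLs, the one cell type with a replicate, by edgeR's quasi-likelihood fit with 4 cell types, in which the single library of the other cell type is assumed to vary as the BL libraries do. Of 279 miRNAs tested, 15.4% were called higher in BLs than in PFFs. All 3 members were among them. The fitted log2 fold change of ssc-miR-182 was 9.56 (standard error 1.81, edgeR adjusted p = 8.2e-06). That of ssc-miR-183 was 9.15 (standard error 1.83, edgeR adjusted p = 2.58e-05) and that of ssc-miR-96-5p was 7.80 (standard error 2.00, edgeR adjusted p = 0.00138). Each was higher in 2 of 2 BL libraries than in the PFF library. The result rests on 1 PFF library and 1 residual degree of freedom. edgeR shares the spread over all 279 miRNAs, so these p-values do not measure each member's own spread alone. The standard errors in edgeR's fits were worked back from the fold change and the test statistic.

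BLs, ES-like cells and PEBs lay much closer to each other, and the members did not move alike among them. The BL level of ssc-miR-182 was 2.17 times that of ES-like cells and 2.35 times that of PEBs, where 24.8% and 26.9% of the reported miRNAs were more than 2-fold higher in BLs. Without BL_2 both ratios fell below 2-fold, to 1.62 and 1.76 times. On the log2 scale the ratio to ES-like cells went from 1.12 on RPM to 1.80 with TMM and 1.73 with DESeq2's size factors, and the ratio to PEBs from 1.23 to 1.19 and 1.82. For ssc-miR-183 the BL level was 1.25 and 1.63 times that of ES-like cells and PEBs, and it did not pass the rule on RPM. On the log2 scale its ratio of BLs to ES-like cells was 0.32 on RPM, 0.99 with TMM and 0.95 with DESeq2's size factors, and that of BLs to PEBs was 0.71, 0.66 and 1.30, the last of which passed 2-fold. ssc-miR-96-5p went the other way, with a level in ES-like cells 3.87 times that of BLs and 2.65 times that of PEBs (2.59 to 2.72). Its log2 ratio of BLs to ES-like cells was -1.95 on RPM, -1.28 with TMM and -1.34 with DESeq2's size factors. In the same directions 52.3% and 25.7% of the reported miRNAs passed. No member was called in edgeR's fit of BLs against ES-like cells or PEBs with the designed scaling, where 8.6% and 9.68% of miRNAs were called higher and 17.2% and 18.6% lower in BLs. For ssc-miR-182 the fitted log2 fold change was 2.07 against ES-like cells (standard error 1.22, edgeR adjusted p = 0.208) and 1.99 against PEBs (standard error 1.22, edgeR adjusted p = 0.21). With DESeq2's size factors in the same edgeR fit, both were called, with adjusted p = 0.0115 and 0.00785, in a fit that called 16.5% and 18.6% of miRNAs higher in BLs. For ssc-miR-96-5p against ES-like cells the fitted log2 fold change was -1.01 (standard error 1.27, edgeR adjusted p = 0.578), and it was called only without scaling beyond the library total (-1.94, adjusted p = 0.00849), where 41.6% of miRNAs were called lower in BLs. ssc-miR-183 was called in neither comparison under any of the 5 fits, which does not show that its levels were equal.

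**Figure D2:**
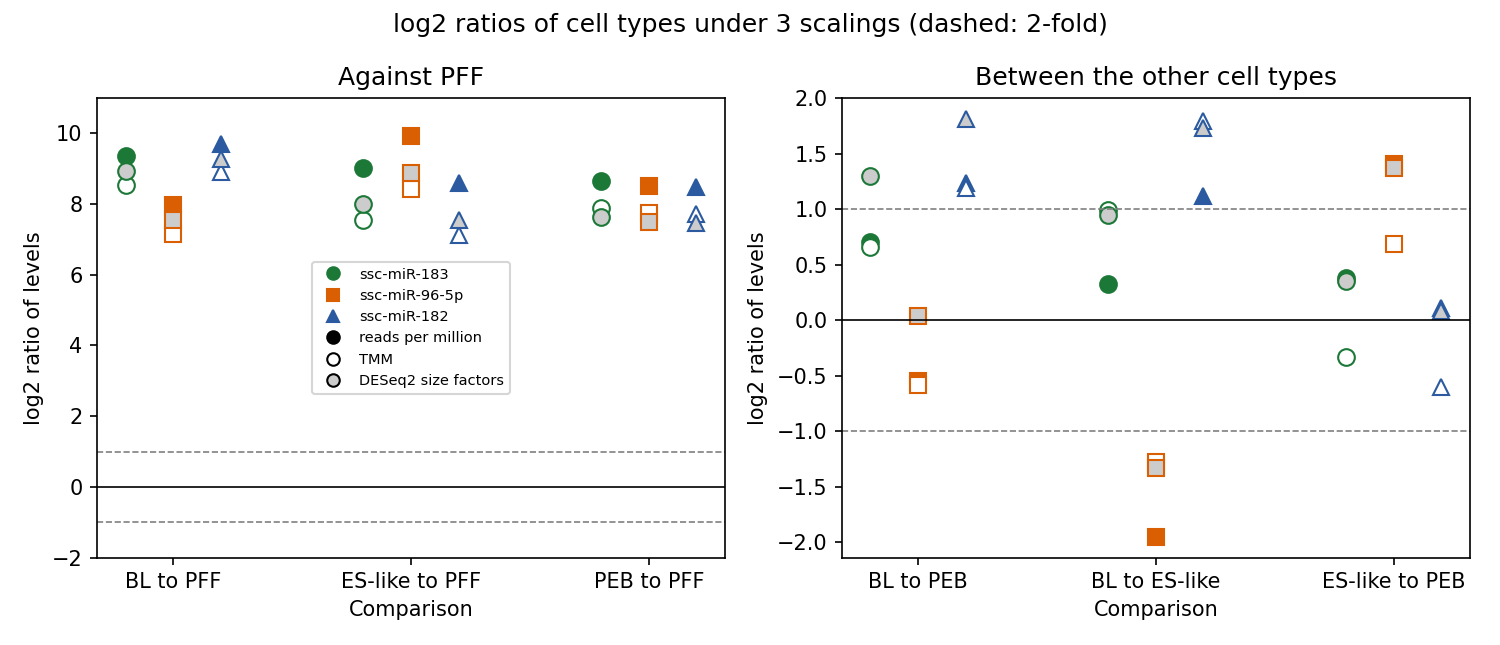
log2 ratios of levels between cell types (vertical axis) for the 3 members under 3 scalings, namely RPM (filled), TMM (open) and DESeq2's size factors (grey), with BLs as the mean of 2 libraries. Ratios to PFFs all lie far above the dashed 2-fold lines, while ratios between the other cell types lie near them and shift with the scaling.

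The ratios shifted with the scaling, and the cause of this was not tested. Over the 200 miRNAs with reads in every library, the median log2 ratio of ES-like cells to PFFs was 1.13 on RPM, and TMM moved it by -1.47. Against this the members' ratios to PFFs, at log2 values of 7.96 to 9.91 on RPM, stayed between 5.50 and 10.03 under all alternatives tried. Between ES-like cells and PEBs, TMM moved the median by -0.72, and the log2 ratio of ssc-miR-96-5p fell from 1.41 to 0.69, below 2-fold. ssc-miR-183 and ssc-miR-182 turned from 0.38 and 0.11 to -0.33 and -0.60. Whether the summed level differed between ES-like cells and PEBs could therefore not be settled from these libraries.

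The study also set pluripotent cells (BLs and ES-like cells) against differentiated cells (PEBs and PFFs), and the members did not divide along this line. PEBs, on the differentiated side, were within 2.35-fold of BLs and 2.65-fold of ES-like cells for each member on RPM, and PFFs stood alone. In edgeR's quasi-likelihood test of the 3 libraries against 2, the fitted log2 fold change was 2.56 for ssc-miR-182 (standard error 1.96, edgeR adjusted p = 0.66). It was 2.09 for ssc-miR-183 (standard error 1.85, adjusted p = 0.73 by edgeR) and 1.61 for ssc-miR-96-5p (standard error 1.80, adjusted p = 0.794 by edgeR). The call rate in this comparison was 0% of 279 miRNAs in edgeR, with 21 at an unadjusted p under 0.05. limma-voom called 0 and DESeq2 14, no member among them. Without the PEB library, the fitted values of the members rose to 8.73 for ssc-miR-182, 8.49 for ssc-miR-183 and 7.90 for ssc-miR-96-5p, with an adjusted p of 0.40 from edgeR for each. Without the PFF library they were 1.59, 1.13 and 0.67. The differentiated group thus held a library with high and a library with low levels of the cluster.

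Ratios between members within a library do not depend on scaling between libraries. The ratio of ssc-miR-96-5p to ssc-miR-182 was 0.0266 in BL_1 (exact 95% interval 0.0196 to 0.0353) and 0.0241 in BL_2 (0.0230 to 0.0253). It was 0.210 in ES-like cells (0.206 to 0.214), 0.0858 in PEBs (0.0843 to 0.0874) and 0.0840 in PFFs (0.0633 to 0.110). Relative to ssc-miR-182, miR-96 thus stood above its place in BLs by 8.31 times in ES-like cells, 3.39 times in PEBs and 3.32 times in PFFs. On the log2 scale the difference between ES-like cells and BLs was 3.05, against 0.14 between BL_1 and BL_2. PEBs and PFFs, whose summed levels lay 374-fold apart on RPM, differed by 0.03 in this log2 ratio, within the counting error of the PFF reads.

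The ratio of ssc-miR-96-5p to ssc-miR-183 showed the same order of cell types apart from PEBs and PFFs. BL_1 and BL_2 had ratios of 0.0381 and 0.0479, ES-like cells 0.210, PEBs 0.103 and PFFs 0.115. The log2 difference between ES-like cells and BLs was 2.30, against 0.33 between the BL libraries. The ratio of ssc-miR-182 to ssc-miR-183 varied less, from 1.00 in ES-like cells through 1.21 in PEBs (1.20 to 1.21), 1.36 in PFFs (1.21 to 1.53) and 1.43 in BL_1 (1.33 to 1.54) to 1.99 in BL_2 (1.96 to 2.01). Here BL_1 and BL_2 differed by 0.47 on the log2 scale, about as much as PEBs from the BL mean (0.49) and more than PFFs from it (0.31), and the counting intervals of BL_1 and PFFs overlap. ES-like cells lay 0.75 below the BL mean. For each of the 3 ratios the 2 BL libraries did not overlap the 3 others. The exact permutation test, two-sided by doubling the smaller one-sided p, gave p = 0.2, also after adjustment over the 3 ratios. That is the smallest p this form allows for 2 libraries against 3. The test was added after the values were seen, so its outcome was fixed and it decides nothing.

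**Figure D3:**
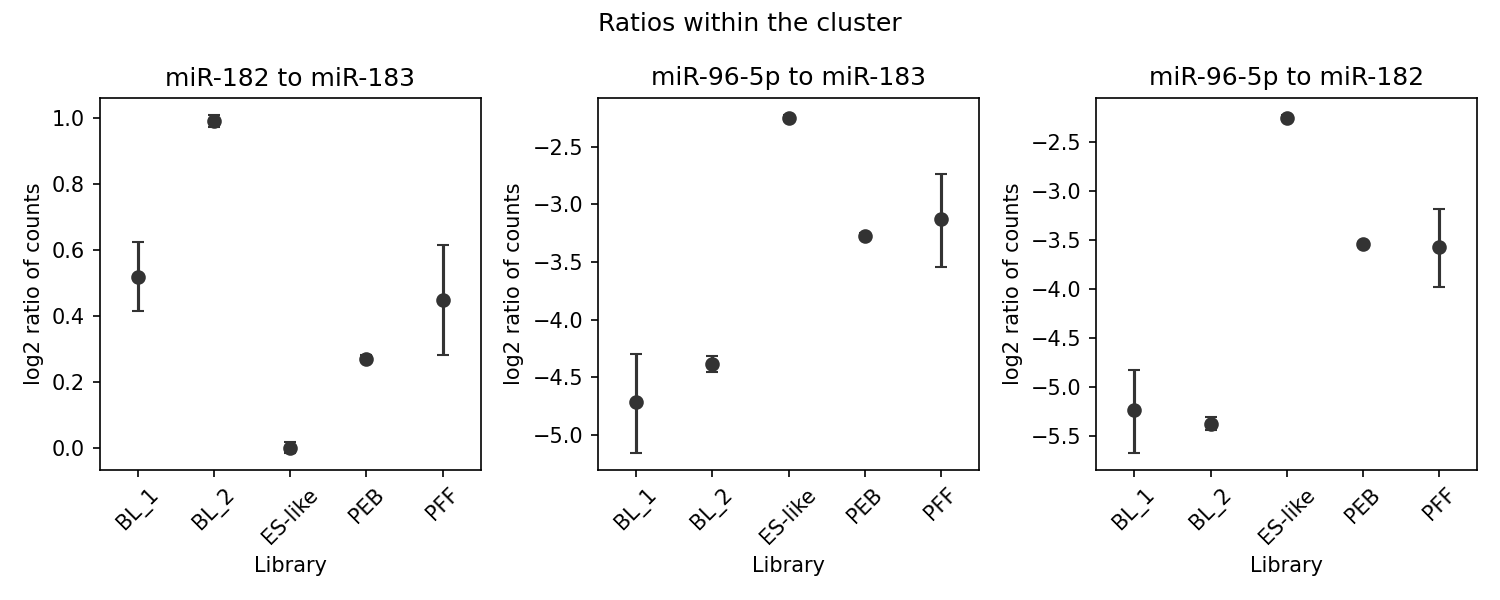
log2 ratio of counts (vertical axis) for each pair of members in the 5 libraries (horizontal axis), with exact 95% intervals for counting error. Both ratios with miR-96-5p are lowest in BL_1 and BL_2 and highest in ES-like cells, while miR-182 to miR-183 differs between the BL libraries by 0.47.

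As a share of the cluster's own reads, ssc-miR-96-5p made up 1.54% in BL_1 (95% Wilson interval 1.17 to 2.03%) and 1.58% in BL_2 (1.51 to 1.65%). Its share was 9.52% in ES-like cells (9.37 to 9.67%), 4.48% in PEBs (4.40 to 4.56%) and 4.62% in PFFs (3.60 to 5.92%). In spite of their unequal depth, the BL libraries differed in this share by less than counting error. ssc-miR-182 made up 58.0% and 65.5% in the BL libraries, and 45.2%, 52.2% and 55.0% in ES-like cells, PEBs and PFFs. The remainder was ssc-miR-183, from 33.0% in BL_2 to 45.2% in ES-like cells.

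**Figure D4:**
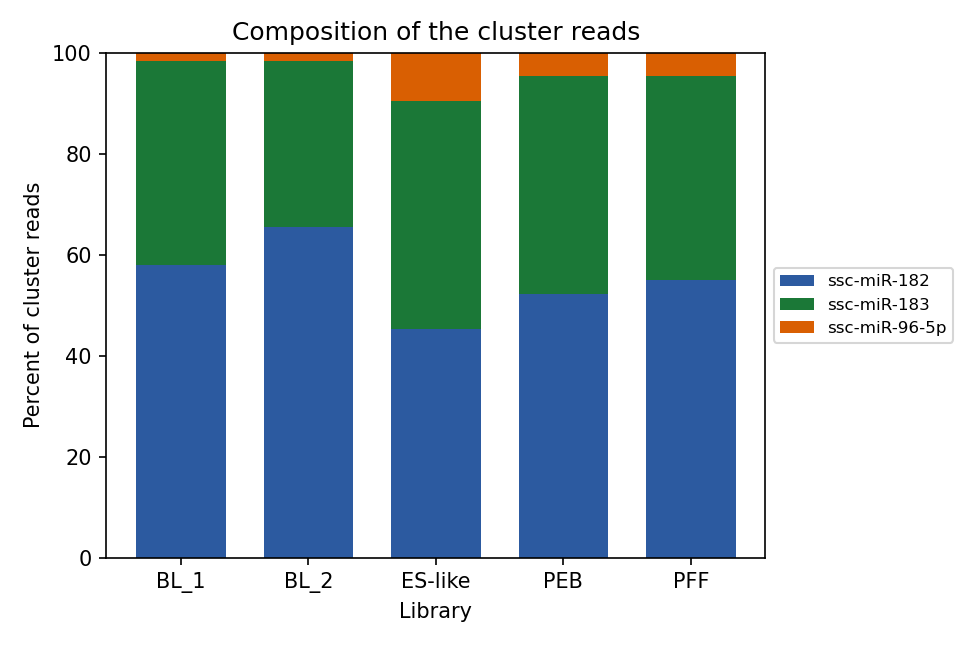
Percent of the cluster's reads (vertical axis, from 0 to 100) that came from each member in the 5 libraries (horizontal axis). The share of ssc-miR-96-5p is 1.54% and 1.58% in the BL libraries and 9.52% in ES-like cells.

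Changes of ratio between miRNAs of a common transcript were not particular to this cluster. Of 9 other such pairs fixed as a comparison, 5 had at least 10 reads for both miRNAs in every library. Their log2 ratios ranged over 0.87 (ssc-miR-99b and ssc-miR-125a) to 3.17 (ssc-miR-221-3p and ssc-miR-222) between the highest and the lowest library, with a median of 2.70. The cluster's own ranges were 0.99 for ssc-miR-182 to ssc-miR-183, 2.47 for ssc-miR-96-5p to ssc-miR-183 and 3.13 for ssc-miR-96-5p to ssc-miR-182. In 3 of the 5 other pairs, ES-like cells lay farther from the BL mean than BL_1 lay from BL_2. Between ES-like cells and PEBs, miR-96 to miR-182 differed by 1.29 in log2 ratio, miR-96 to miR-183 by 1.02 and miR-182 to miR-183 by -0.27. The other pairs differed by 1.60 (ssc-miR-99b and ssc-let-7e), 0.48 (ssc-miR-99b and ssc-miR-125a), -0.38 (ssc-miR-424-3p and ssc-miR-503), -0.07 (ssc-miR-221-3p and ssc-miR-222) and -0.04 (ssc-miR-17-5p and ssc-miR-20a). Thus 1 of the 5 moved farther than miR-96 to miR-182, the pair of the cluster that moved most, and more of them moved farther than miR-182 to miR-183.

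**Figure D5:**
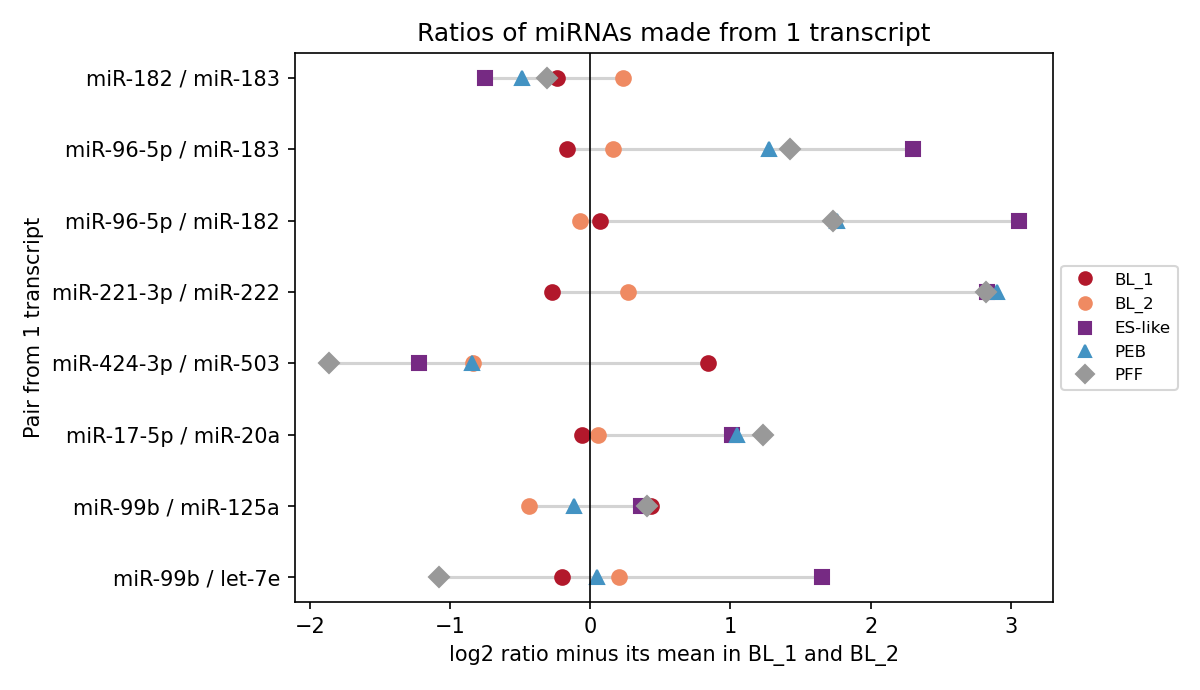
log2 ratio of counts minus its mean in BL_1 and BL_2 (horizontal axis) for the 3 pairs of the cluster and 5 other pairs of miRNAs made from 1 transcript (vertical axis), with a point for each library. For miR-96-5p to miR-182, ES-like cells stand at 3.05 and PEBs and PFFs together near 1.7.

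Of the 182 other reported miRNAs compared, none followed the summed level of the cluster closely over the 5 libraries. Scarcer miRNAs were not compared. Likeness was measured as the root mean square difference of centred log2(RPM + 10) profiles, among the miRNAs with at least 100 RPM in some library. ssc-miR-182 and ssc-miR-183 stood at 0.19 and 0.21 from the sum, to which they contribute most reads, and ssc-miR-96-5p at 1.46. The nearest other miRNA was ssc-miR-146b at 1.56, with 615, 788, 599, 2389 and 5.98 RPM in BL_1, BL_2, ES-like cells, PEBs and PFFs. It was likewise lowest in PFFs but highest in PEBs. ssc-miR-378b-3p followed at 2.12, and ssc-miR-9-1, ssc-miR-9-2 and ssc-miR-9 at 2.14. The last 3 names had the same counts to within 1 read in every library, and so give no more than 1 profile. The median over all miRNAs compared was 3.64. With a pseudocount of 1 RPM, 4 of the 5 nearest names were shared, as ssc-miR-146a-5p entered and ssc-miR-9 dropped out. ssc-miR-146b was then still the nearest, at 1.30, and ssc-miR-96-5p stood at 1.07. With TMM all 5 names were shared.

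Of the 8 epithelial-associated numbers fixed as a list, ssc-miR-429 and ssc-miR-205 were listed, and both were low in PFFs as the cluster was. ssc-miR-429, of the miR-200 family that maintains the epithelial state, had no read in BL_1 and 65 reads in BL_2, while ES-like cells had 7638, PEBs 11376 and PFFs 2. A count of 0 in BL_1 allows a level of up to 26.4 RPM. ssc-miR-429 stood at 23.4 RPM in BL_2, so it was low in BLs, where the summed RPM of the cluster was highest. ssc-miR-205, a miRNA of stratified epithelia, showed the opposite pattern, with 4748 and 5753 RPM in the BL libraries but 134 reads in ES-like cells, 1136 in PEBs (71.7 RPM) and 19 in PFFs (0.702 RPM). In edgeR's fit against BLs, ssc-miR-429 was lower in BLs than in ES-like cells (log2 fold change -5.10, edgeR adjusted p = 0.00356) and PEBs (-4.56, adjusted p = 0.00786), and ssc-miR-205 was higher (8.85, adjusted p = 0.000193, and 6.89, adjusted p = 0.00167). Against PFFs both were higher in BLs (7.63, adjusted p = 0.00322 for ssc-miR-429 and 12.64, adjusted p = 1.55e-06 for ssc-miR-205), where ssc-miR-429 rests on the 65 reads of BL_2 and 2 reads in PFFs. In the comparison of pluripotent and differentiated cells neither was called (2 of 2 tested, adjusted p = 0.99 and 0.478).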

How the data were processed

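Small RNA libraries of 5 samples were analysed. The authors removed short reads and those lacking adapter, trimmed adapters with Cutadapt 1.10, aligned with Bowtie 1.1.1 to Sscrofa10.2 and counted miRBase miRNAs with miRDeep2, and they deposited raw counts. Their handling of multiply matching reads is not given in the sources used here. Columns were matched to samples by the labels' titles, although a read summary of the study gives the totals of ES-like cells and PFFs the other way round. The table of predicted loci was not used here. Counts were summed over 493 precursor rows and divided by the library total (113743 to 27071931 reads). Intervals are 95% Wilson or exact. Tests used edgeR 4.0.16 (quasi-likelihood, TMM, Benjamini-Hochberg over all miRNAs that had over 5 reads in 3 or more libraries, threshold 0.05). limma 3.58.1 and DESeq2 1.42.0 served as alternatives. The edgeR steps were also run on simulated counts with a common dispersion for all miRNAs. Apart from the planted change these had no differences between cell types, unlike the libraries here, and no result rests on that run. Each member and list miRNA, the 5 miRNAs nearest the cluster sum and the most abundant of each marker list were to be named. Members, lists and tests were chosen with earlier results of these data known. The 100-fold limit and the permutation test were added after the values were seen. R 4.3.3 and Python 3.11.15 were used.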

Additional observations from a re-analysis of the deposited data

How the results depend on the processing

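The 12 ratios to PFFs (each member and the sum, for BLs, ES-like cells and PEBs) kept their direction and stayed past 2-fold, or past 4-fold where that was the limit, in all 56 alternative values. For each of the 12 ratios these include the main value set against the 4-fold limit, whose direction could not change. Levels of single libraries moved past their counting intervals in 52 of the 60 values from TMM, another denominator or the largest precursor row. Without the most abundant miRNA in the denominator the sum rose from 47.1 to 98.8 RPM in PFFs and from 17649 to 21755 RPM in PEBs. With the largest precursor row it rose to 53.9 RPM in PFFs and to 23335 RPM in PEBs. The same setting moved it from 22043.5 to 26739.7 RPM in ES-like cells, from 27949 to 33680 RPM in BL_1 and from 41451 to 49827 RPM in BL_2. Ratios between the other cell types were less stable, and all values here are log2. With DESeq2's size factors, BLs to PEBs was 1.30 for ssc-miR-183, 0.042 for ssc-miR-96-5p (-0.54 on RPM) and 1.56 for the sum, and BLs to ES-like cells 1.27 for the sum. With TMM, BLs to ES-like cells was 1.33 for the sum, and ES-like cells to PEBs 0.69 for ssc-miR-96-5p, -0.33 for ssc-miR-183, -0.60 for ssc-miR-182 and -0.40 for the sum. A 4-fold limit was missed by ssc-miR-182 in BLs against PEBs (1.23) and ES-like cells (1.12) and by ssc-miR-96-5p in BLs against ES-like cells (-1.95) and ES-like cells against PEBs (1.41). Leaving out a BL library gave 0.81 to 1.56 for ssc-miR-182 in BLs against PEBs, 0.70 to 1.44 against ES-like cells, and 0.66 to 1.23 for the sum against PEBs. Ratios within the cluster depend on no scaling, and with 1 row and 1 arm a member the precursor and arm settings left them as they were by construction.

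In the fit of BLs against PEBs, ssc-miR-182 was called by DESeq2 (1.85, adjusted p = 0.0335) and by edgeR with DESeq2's size factors (1.85), and ssc-miR-96-5p turned from 0.20 (edgeR adjusted p = 0.925), where the RPM ratio was -0.54, to -0.53 without scaling and -0.57 without the filter. Against ES-like cells, ssc-miR-182 was called by DESeq2 (1.76, adjusted p = 0.0463), with its size factors (1.76) and without the filter (1.80, adjusted p = 0.00471), and ssc-miR-96-5p without scaling (-1.94). On the filtered counts the TMM factors of BL_1 and BL_2 differed 1.82-fold, against 1.06-fold without the filter, and the fitted common dispersion was 0.294 against 0.132. The miRNAs called in BLs against ES-like cells, PEBs and PFFs numbered 72, 79 and 86, and 136, 138 and 143 with DESeq2's size factors, 154, 176 and 165 without the filter, 155, 151 and 138 without scaling, and 111, 110 and 117 by DESeq2. Higher in BLs than in ES-like cells were 24 of the 72, 43 of the 111 by DESeq2 and 61 of the 154 without the filter, and higher than in PEBs 27 of the 79 and 46 of the 110 by DESeq2. For pluripotent against differentiated cells 0 became 14 with DESeq2, and leaving out single libraries gave 0 to 16, the 16 without ES-like cells. The cause was not tested. Leaving out BL_1 or BL_2 leaves the fit of BLs no residual degrees of freedom, so only the ratios are given. No paired analysis was possible because only BLs carry replicate numbers. Depth limits BL_1 most, where 3 reads are 26.4 RPM.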

Other observations

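Some values belong to no comparison above. The reads of the cluster in PFFs numbered 1276, of which ssc-miR-182 gave 702, ssc-miR-183 515 and ssc-miR-96-5p 59, far above the limit of 3 counts (0.111 RPM). As shares of these reads with 95% Wilson intervals, ssc-miR-183 made up 40.4% (37.7 to 43.1%), against 43.3% in PEBs (43.1 to 43.5%) and 40.5% in BL_1 (38.8 to 42.2%). ssc-miR-182 made up 55.0% (52.3 to 57.7%), against 52.2% in PEBs (52.0 to 52.4%) and 58.0% in BL_1 (56.2 to 59.7%). Of 83 other miRNAs with at least 500 RPM in PEBs, a limit chosen after the values were seen, 4 had a larger RPM ratio of PEBs to PFFs than the cluster sum, and the median ratio was 2.42. This limit picks miRNAs by their PEB level, which is also the numerator of the ratio. The place of the cluster among them is therefore a description only, and no conclusion is drawn from it. The level in PEBs was 13076 times that in PFFs for ssc-miR-122 and 9715 times for ssc-miR-429 (counting interval 2689 to 80231, from 2 reads), against 702 times for ssc-miR-452, 399 times for ssc-miR-146b and 374 times for the cluster sum. ssc-miR-122 and ssc-miR-452 were chosen after their values were seen. The nearly equal counts of ssc-miR-183 and ssc-miR-182 in ES-like cells, 63551 and 63550, were not found in another library, where the ratio of the pair was between 1.21 and 1.99.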
